A study of Homo sapiens with 12 samples.

Results

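The miR-302/miR-367 cluster, the miR-371 to miR-373 cluster and the chromosome 19 miRNA cluster (C19MC) are sets of neighbouring miRNA genes known from early embryo and placenta. Assays for them were chosen by miRNA number alone, that is miR-302a to miR-302f, miR-367, miR-371a to miR-373, miR-498, miR-512 and miR-515 to miR-527 with all letters and arms, and this gave 17 of the 372 miRNA assays of a miScript miRNA PCR Array. Of the 17, 5 were for the miR-302 genes, 3 for miR-372 and miR-373 and 9 for C19MC. The arrays were run on RNA of OCI-My5, a human multiple myeloma cell line, in 12 conditions with 1 array per condition. My5.LV cells carried the lentiviral vector alone and had a low level of CRBN, the protein that lenalidomide binds, and My5.CRBN cells carried a lentiviral CRBN cDNA. Both cell lines were arrayed un-treated, after AGO2-sh72 (a lentiviral shRNA against AGO2, also named EIF2C2, the protein that holds mature miRNAs), after lentiviral AGO2 cDNA, after 10 µM lenalidomide for 72 h (3 days) or 120 h (5 days), and after AGO2 cDNA together with 72 h of lenalidomide. Each single treatment was set against the un-treated array of its own line, and AGO2 cDNA with lenalidomide against 72 h of lenalidomide alone. No array labelled as un-treated cells kept for 72 h or 120 h, or as cells given DMSO alone, was analysed here. Time in culture and lenalidomide therefore cannot be told apart at 72 h or at 120 h. There was also no array of cells infected with the empty vector of the shRNA or of the AGO2 cDNA. Infection itself thus cannot be told apart from AGO2-sh72 or AGO2 cDNA.

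The values are threshold cycles (Ct), the PCR cycle number at which a well turns positive. A level is lower the higher its Ct, and 1 cycle is taken as 1 unit on the log2 scale. Values over 35 or undetermined were set to 35, and the mean Ct of 6 small-RNA control wells (5 snoRNAs and RNU6-2) was subtracted, which gives the normalized Ct. Log2 fold changes are differences of normalized Ct, control minus test, so that a positive value is a higher level on the test array. A miRNA at Ct 35 on 1 of the 2 arrays has only a bound, written as "at least", and a miRNA at Ct 35 on both has no value. Every member that has only a bound drops out when the comparison keeps only miRNAs under 35 on both arrays. Since each condition has 1 array, no difference has a replicate check and no p-value is given. As the spread of a comparison, the SD over the 6 control wells of their own log2 fold changes is printed.

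Primary miRNA transcripts are cut to hairpins, and each hairpin can give a mature miRNA from its 5′ arm (5p) and from its 3′ arm (3p), of which 1 is usually kept in AGO proteins. The mature miRNA finds its targets mainly through bases 2 to 8, the seed. The miR-302/miR-367 and miR-371 to miR-373 clusters are expressed in embryonic stem cells, where miRNAs of their shared seed act on cell cycle inhibitors. C19MC is found in primates and is expressed from the paternal copy, mainly in placenta.

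Mature sequences are shown here because the shared seed is what links these genes across the 2 chromosomes. RefSeq (GRCh38.p14) held 15 of the 17 assay names, and miR-498 and miR-522-3p are named only. Each sequence is written 5′ to 3′ with its seed in capitals. The seed AAGUGCU was held by 6 of the 15, and by no other of the 330 assays of the array with a RefSeq sequence.
miR-302a-3p: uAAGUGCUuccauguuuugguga
miR-302b-3p: uAAGUGCUuccauguuuuaguag
miR-302c-3p: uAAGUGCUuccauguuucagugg
miR-372-3p: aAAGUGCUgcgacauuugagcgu
miR-373-3p: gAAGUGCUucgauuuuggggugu
miR-520c-3p: aAAGUGCUuccuuuuagagggu
The C19MC members that follow have related or other seeds, and miR-17-5p, which is not a member, is shown beside miR-519d-3p because both carry the seed AAAGUGC.
miR-519d-3p: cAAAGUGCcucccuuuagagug
miR-17-5p: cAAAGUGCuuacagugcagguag
miR-520g-3p: aCAAAGUGcuucccuuuagagugu
miR-518b: cAAAGCGCuccccuuuagaggu
miR-517a-3p: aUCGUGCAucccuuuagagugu
miR-512-5p: cACUCAGCcuugagggcacuuuc
miR-524-5p: cUACAAAGggaagcacuuucuc
The remaining members are 5p arms of hairpins whose 3p arms carry AAGUGCU.
miR-302a-5p: aCUUAAACguggauguacuugcu
miR-302b-5p: aCUUUAACauggaagugcuuuc
miR-373-5p: aCUCAAAAugggggcgcuuucc

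The letters AAGUGCU also stood outside the seed in miR-302b-5p (from base 13). In miR-520g-3p they started at base 4, so they overlapped the seed without being it. Thus 8 of the 15 members (53.3%) held them somewhere, against 14 of the 330 assays with a sequence (4.24%). The seed AAAGUGC of miR-519d-3p was shared with 5 assays outside the clusters, miR-17-5p, miR-20a-5p, miR-20b-5p, miR-93-5p and miR-106b-5p. The deposited tables did not name all wells alike. The miR-517a-3p well was named miR-517b-3p in the table of fold changes, and the RefSeq sequences of both are identical over 22 bases. The miR-520c-3p well was named miR-520f-3p there, whose sequence matches that of miR-520c-3p over 21 bases but starts 1 base further in, so its seed is a different one and the identity of this well is not settled.

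The 3 miR-302 hairpins measured lie on the minus strand of chromosome 4, with their mature sequences between chr4:112648186-112648547, within the annotated spans of the host gene MIR302CHG and of LARP7. The mature sequences of the C19MC members lie on the plus strand at chr19:53666692-53722243, and miR-512-5p has 2 identical copies there, from MIR512-1 and MIR512-2. The miR-372 and miR-373 sequences follow on the same strand at chr19:53787931-53788770. The annotation used gives gene spans only, so exons and introns were not told apart.

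In these myeloma cells miR-373-5p was the only member with a low Ct. On the 12 arrays its Ct ran from 18.8 (My5.CRBN with 72 h of lenalidomide) through a median of 20.5 to 23.0 (My5.CRBN with AGO2 cDNA), and by mean Ct it was number 28 of the 372 assays. Its normalized Ct lay between -0.41 and 1.12, so its wells crossed the threshold at about the same cycle as the snoRNA and RNU6-2 wells on every array. The median assay of the array had a Ct of 28.4, the median over the 12 arrays.

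miR-302c-3p came next, with a Ct from 27.3 to 33.8 and a median of 29.5, and was number 241 by mean Ct. The other 15 members had mean Ct values from 31.5 (miR-524-5p) to 34.8 (miR-302b-3p). Of the 204 values of the 17 members on 12 arrays, 36 were at the cap and 23 under Ct 30, and all values under 30 came from 4 assays. Ct values of different assays also carry the efficiency of each primer, so these ranks are ranks of Ct and not of copies.

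A control in the same Ct range was available, since each array has 2 wells for cel-miR-39, a worm miRNA that human cells do not have. Their Ct ran from 31.5 to the cap, and 19 of the 24 wells were under 35. A spike-in of this miRNA is not given in the sources used here. The Ct was lower than that of the lower cel-miR-39 well of its array for 6 to 15 of the 17 members, with a median of 10. The 2 cel-miR-39 wells of an array differed by at least 1.43 cycles (root mean square over 12 arrays, a minimum because 5 of the 24 wells were set to 35), against 0.187 cycles for the reverse transcription control at Ct 21.6 to 24.9. A difference of 3 fold in a member with a Ct over 31 is therefore close to the spread between the wells of this 1 assay. Over all comparisons a member was counted as at least 3 fold higher or lower 18 times, and in 5 of these its Ct was under that of the lower cel-miR-39 well on both arrays, 3 times for miR-302c-3p and 2 times for miR-372-3p. In the other 13 at least 1 array had the member at or above the Ct of that well, so the folds given for them are those of a well at the limit.

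**Figure D1:**
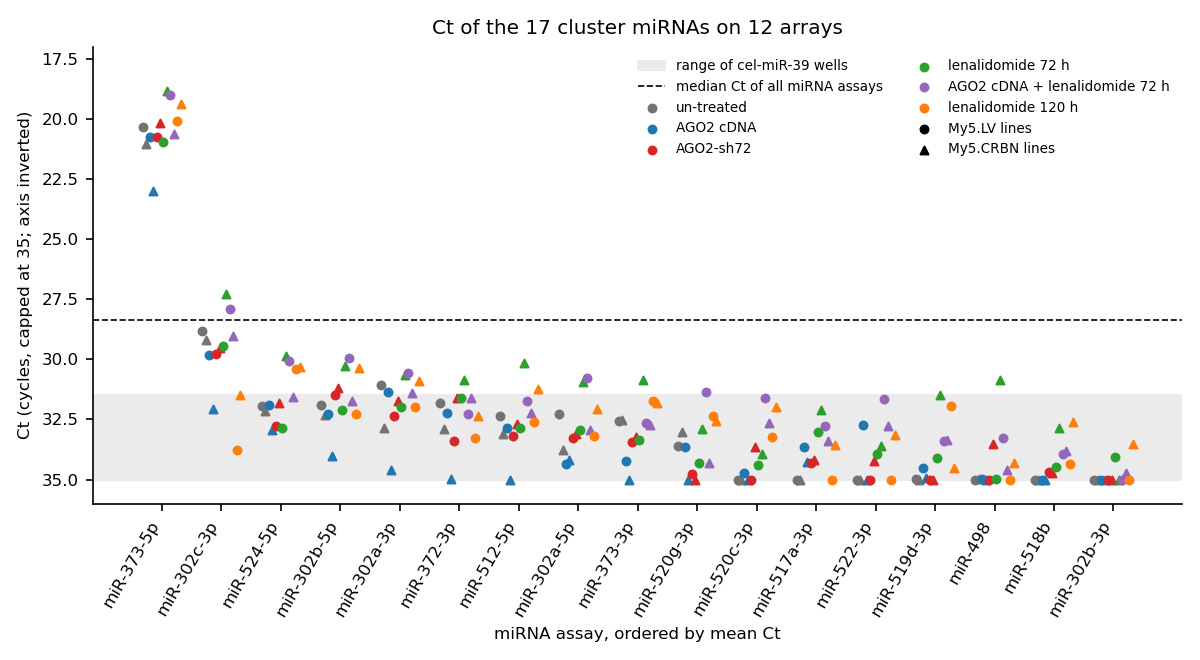
Ct in cycles (inverted axis, capped at 35) of each of the 17 assays, ordered by mean Ct, with 1 point per array (colour: treatment; circles: My5.LV lines; triangles: My5.CRBN lines). miR-373-5p lies at Ct 18.8 to 23.0, miR-302c-3p near the dashed median of all assays (28.4), and most others within the grey range of the cel-miR-39 wells.

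The hairpin of miR-373 gave the clearest difference between arms. The 5p assay had a Ct 11.5 to 13.6 cycles lower than the 3p assay on the 11 arrays where both were under 35, with a median of 12.4 cycles. miR-373-3p, the arm with the AAGUGCU seed, had a Ct between 30.9 and the cap. This difference is taken within an array and needs no normalizer, but it holds any difference between the primers. For miR-302a the arms were close. The 3p Ct minus the 5p Ct ran from -2.98 to 0.43 with a median of -1.07, so the arm with the shared seed had the lower Ct on 11 of the 12 arrays, all but My5.CRBN with AGO2 cDNA. For miR-302b the order was the other way round. miR-302b-5p was measured on all 12 arrays at a Ct of 29.9 to 34.0, whereas miR-302b-3p was under 35 on 3 arrays only, at 34.0 (My5.LV, 72 h of lenalidomide), 34.7 (My5.CRBN, AGO2 cDNA and 72 h of lenalidomide) and 33.5 (My5.CRBN, 120 h).

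C19MC members were near the limit of the assay. Un-treated cells of each line had 4 of the 9 under Ct 35. Of these, miR-524-5p had the lowest Ct in both lines (31.95 and 32.15). After AGO2 cDNA 8 (My5.LV) and 3 (My5.CRBN) were under 35, and after AGO2-sh72 5 and 7. With lenalidomide all 9 were under 35 on 5 of the 6 arrays and 6 on the array of My5.LV at 120 h.

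The mean Ct of the control wells was 18.7 to 20.4 on the 6 lenalidomide arrays and 20.2 to 21.9 on the other 6, so that a Ct of 35 stood for a different level relative to the controls from array to array. In My5.LV the mean Ct of the control wells was 20.16 un-treated, with 4 C19MC members under 35, and 20.37 at 72 h of lenalidomide, with 9. The highest mean, 21.86 in My5.CRBN with AGO2 cDNA, came with 3, and the lowest, 18.70 in My5.CRBN at 120 h, with 9. The part of the control wells in these counts was not tested. To put the arrays on 1 limit, the members were counted again under a normalized Ct of 13.1, the lowest level that every array could measure. Then 2 to 6 C19MC members (median 4.5) were measured on the lenalidomide arrays and 2 to 5 (median 3) on the others, and the groups overlapped. Un-treated My5.LV then had 2 and My5.LV at 72 h of lenalidomide 3. Over all 372 miRNAs the same limit gave 317 to 348 with and 324 to 342 without lenalidomide, with a median of 332 in both.

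**Figure D2:**
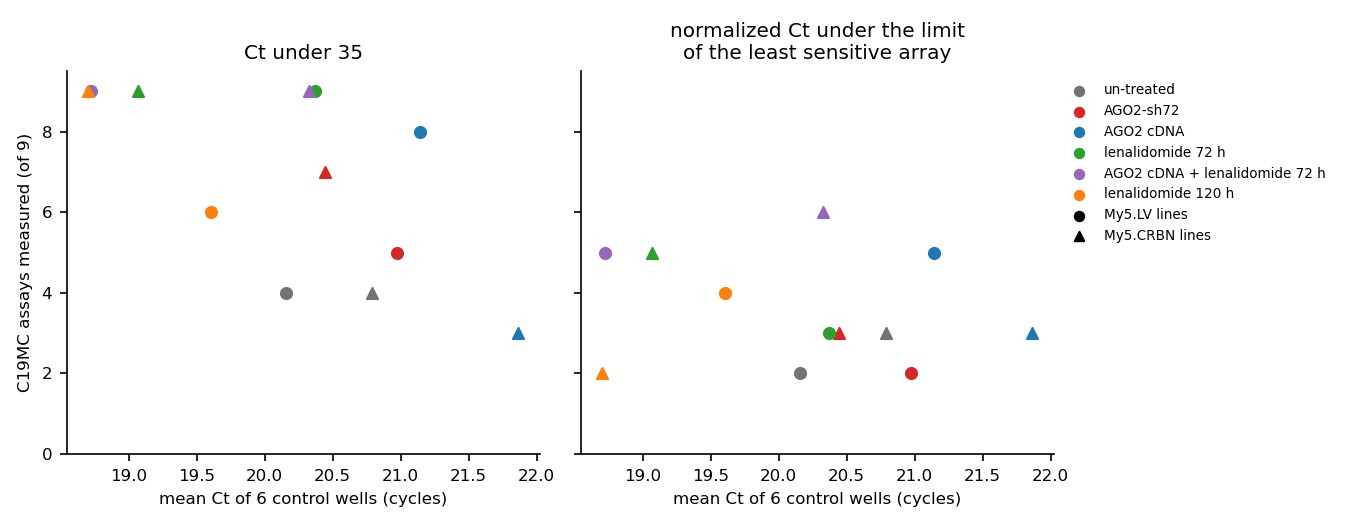
Number of the 9 C19MC assays measured on each of the 12 arrays against the mean Ct of the 6 control wells in cycles, with a Ct under 35 (left) or with a normalized Ct under 13.1 (right). On the left 5 of the 6 lenalidomide arrays stand at 9, and on the right the counts with lenalidomide (2 to 6) and without it (2 to 5) overlap.

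After 120 h of lenalidomide the level of miR-302c-3p was lower in both cell lines. Its normalized Ct was 8.64 in un-treated My5.LV and 14.16 at 120 h, a log2 fold change of -5.51, and 8.40 in un-treated My5.CRBN and 12.79 at 120 h, a log2 fold change of -4.39 (21.0 fold lower). The spread of the control wells was 0.41 and 0.22. The size of the change in My5.LV rests on a well near the limit, since its Ct at 120 h was 33.76 and the lower cel-miR-39 well of that array stood at 33.95. With a cap of 32 the miR-302c-3p well at 120 h is capped, and the bound of -3.75 or lower is still over 3 fold. On the other 8 arrays its normalized Ct was 8.69 and 10.19 with AGO2 cDNA, 8.82 and 9.09 with AGO2-sh72, 9.08 and 8.21 at 72 h, and 9.18 and 8.71 with AGO2 cDNA at 72 h (My5.LV first in each). Both 120 h arrays thus stand outside the range of the other 10. Among the miRNAs with a value, miR-302c-3p had the number 2 lowest log2 fold change of 362 in My5.LV, where miR-342-3p, at the cap, was lower, and number 5 of 363 in My5.CRBN. It was the only one of the 17 among the 24 miRNAs at least 3 fold lower in both lines. In My5.LV 362 miRNAs and 13 members had a value, and in My5.CRBN 363 and 17. The members' share was thus near that of all miRNAs. Others of the 24 also had large log2 fold changes at 120 h. Among them were miR-300 (-4.28 and -4.61), miR-720 (-3.78 and -5.81), miR-431-5p (-4.03 and -3.42) and miR-379-5p (-3.67 and -3.85), My5.LV first. At 72 h their log2 fold changes ran from -0.44 to 1.20.

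The neighbours of miR-302c-3p on chromosome 4 moved less. In My5.LV the log2 fold change at 120 h was -1.49 for miR-302a-5p, -1.44 for miR-302a-3p and -0.92 for miR-302b-5p, and in My5.CRBN it was -0.38, -0.11 and -0.15. None of these was 3 fold. The Ct of miR-302c-3p minus that of miR-302a-3p on the same array, which needs no normalizer, was -3.67 to -1.54 on the 10 arrays other than 120 h, and 1.80 (My5.LV) and 0.60 (My5.CRBN) at 120 h. The change from un-treated cells was 4.07 cycles in My5.LV and 4.28 in My5.CRBN. Against miR-302b-5p the change was 4.59 and 4.25 cycles, and against miR-302a-5p 4.03 and 4.01. The assay with the lowest Ct of the miR-302 set thus became one with a Ct above that of miR-302a-3p and miR-302b-5p on both 120 h arrays.

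**Figure D3:**
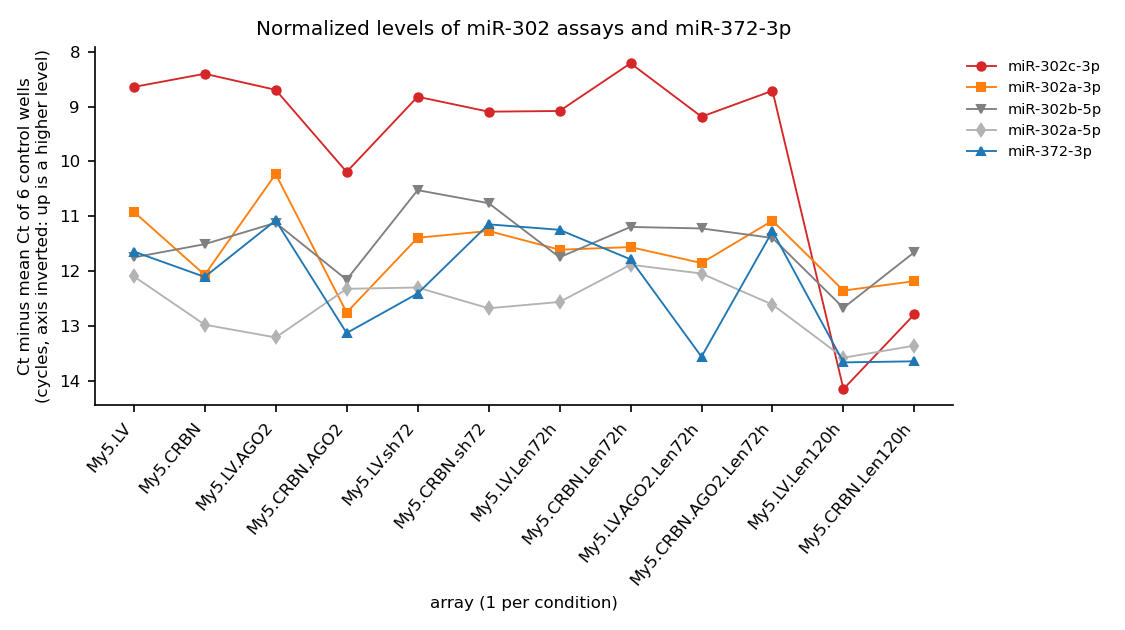
Normalized Ct in cycles (inverted axis, up is a higher level) of 4 miR-302 assays and miR-372-3p on the 12 arrays, 1 point per array. miR-302c-3p lies between 8.21 and 10.19 on 10 arrays and at 14.16 and 12.79 on both 120 h arrays, where the other miR-302 assays stay between 11.66 and 13.58.

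miR-372-3p, with the same seed on chromosome 19, had a normalized Ct of 11.65 un-treated and 13.67 at 120 h in My5.LV, a log2 fold change of -2.02. With a cap of 32, which its Ct of 33.3 at 120 h exceeds, only a bound is left. It was -0.75 or lower, too small for a call. In My5.CRBN the values were 12.11 and 13.65, a log2 fold change of -1.54, just under 3 fold. miR-373-3p had log2 fold changes of 0.28 and -1.39, and miR-373-5p of -0.28 and -0.42. miR-372-3p was not low at 120 h alone, since its normalized Ct was 13.57 in My5.LV with AGO2 cDNA at 72 h and 13.13 in My5.CRBN with AGO2 cDNA.

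Among the C19MC members miR-519d-3p had a Ct of 31.9 in My5.LV at 120 h and of 34.97 un-treated, just under the cap and above the lower cel-miR-39 well of that array (33.2). The log2 fold change of 2.48 thus rests on a well at the limit. With a cap of 32 the un-treated well is capped, which leaves a lower bound of -0.49 with no direction and no call. Its un-treated Ct in My5.CRBN was at the cap, so that no direction can be given there. miR-520g-3p was at least 3 fold lower in My5.CRBN (-1.62) and had a log2 fold change of 0.70 in My5.LV, a difference between the lines that was not tested. Its own Ct in My5.CRBN did not rise, with 33.04 un-treated and 32.56 at 120 h. The mean Ct of the control wells went from 20.79 to 18.70, so the call comes from the normalizer. The un-treated well also lay above the lower cel-miR-39 well of its array (32.95). Over all members, 1 of 13 with a value was at least 3 fold higher in My5.LV at 120 h, against 4.42% of all miRNAs, and 2 were at least 3 fold lower, against 14.6%. In My5.CRBN 0 of 17 were higher, against 5.23%, and 2 were lower, against 11%. With the global mean as normalizer, or with RNU6 alone, 1 was lower in My5.CRBN, which was miR-302c-3p, and with the reverse transcription wells 3, with miR-372-3p at -1.64. RNU6 alone gave 3 lower in My5.LV, with miR-302a-5p at -1.60. The members' median log2 fold change was -0.28 in My5.LV and -0.42 in My5.CRBN, the median of all miRNAs -0.03 and -0.14, and that of the 145 other miRNAs of like Ct (a mean of at least 29) -0.62 and -0.36. Over the 11 members under 35 on both arrays the median in My5.LV was -0.82, with all miRNAs at -0.03.

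**Figure D4:**
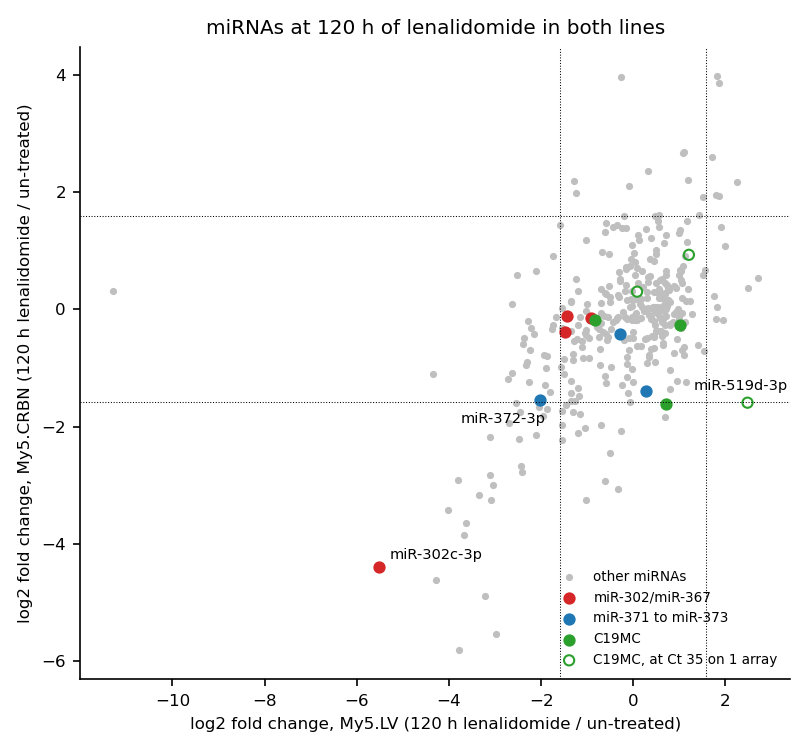
Log2 fold change at 120 h of lenalidomide over un-treated cells in My5.LV (x axis) and My5.CRBN (y axis), 1 point per miRNA with a value in both; dotted lines mark 3 fold and open circles a Ct of 35 on 1 array of either comparison. miR-302c-3p (-5.51, -4.39) lies apart from the other members, which lie between -2.02 and 2.48 in My5.LV and between -1.62 and 0.93 in My5.CRBN.

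Lenalidomide for 72 h left most members within 3 fold. In My5.LV, miR-517a-3p was at the cap un-treated and had a Ct of 33.004 at 72 h, which is at least 4.62 fold higher. It was 1 of 17 members with a value, against 0.549% of all miRNAs at least 3 fold higher, and 0 members were lower, against 0.549%. In My5.CRBN 2 of 16 were at least 3 fold higher, against 10.1%, namely miR-498 (Ct 34.96 un-treated and 30.9 at 72 h, log2 fold change 2.39) and miR-519d-3p (at the cap and 31.5, at least 3.49 fold). With a cap of 32 both un-treated wells are capped. The values of -0.57 and -1.20 are then lower bounds that give no direction and no call. None was at least 3 fold lower, against 0.272%, the nearest being miR-520g-3p with a log2 fold change of -1.58. Normalized to the global mean, 1 was higher and 1 lower in My5.CRBN. The lower bound of miR-519d-3p was then 1.45, too small for a call, and miR-520g-3p was at -1.93. With the reverse transcription wells 2 were higher and 1 lower (miR-520g-3p, -1.71). The members' median was 0.00 in My5.LV (all miRNAs -0.13, spread 0.18), where 6 of the 17 values are bounds from un-treated wells at the cap. Over the 11 members under 35 on both arrays it was -0.44, against -0.14 for all miRNAs. In My5.CRBN the members' median was 0.45 (all miRNAs 0.32, spread 0.22). miR-302c-3p had log2 fold changes of -0.44 and 0.19 and miR-373-5p of -0.39 and 0.48 at this time.

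After AGO2-sh72 1 member, miR-520g-3p in My5.CRBN, was at least 3 fold lower. In My5.LV 0 of 13 members with a value were at least 3 fold lower, against 24.2% of all miRNAs, and 0 were higher, against 1.93%. In My5.CRBN 1 of 15 was lower, against 13.3%, and 0 were higher, against 1.67%. miR-520g-3p had a Ct of 33.04 un-treated and was at the cap after AGO2-sh72, at least 4.96 fold lower. The members' median log2 fold change was -0.01 in My5.LV and 0.44 in My5.CRBN, whereas that of all miRNAs was -0.81 and -0.58, with a spread of 0.51 and 0.30.

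The 145 other miRNAs of like Ct had medians of -0.30 (My5.LV) and -0.12 (My5.CRBN), and 14 of 140 (10.0%) and 9 of 135 (6.67%) with a value were at least 3 fold lower. Of the chromosome 14 list 2 of 27 and 1 of 26 were. The part of the Ct range in the result was not tested. The 10 assays of the miR-17 family (miR-17, miR-20, miR-93 and miR-106) had medians of -1.36 and -1.53. miR-373-5p, the 1 member at a low Ct, had log2 fold changes of 0.40 and 0.53. Its normalized Ct was 0.18 un-treated and -0.22 after AGO2-sh72 in My5.LV, and 0.24 and -0.29 in My5.CRBN. The normalizer moved all miRNAs here. With the global mean, 3 members were at least 3 fold higher and 0 lower in My5.LV, and 1 higher and 1 lower in My5.CRBN, while over all miRNAs 37 were higher and 14 lower in My5.LV and 24 and 8 in My5.CRBN. With RNU6 alone, 0 members were higher and 1 lower in My5.LV, and 1 and 201 of all miRNAs. The members' median lay 0.81 above that of all miRNAs in My5.LV and 1.02 above it in My5.CRBN with the 6 control wells.

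After AGO2 cDNA miR-517a-3p was at least 3 fold higher in both lines, each time from the cap. This was not particular to AGO2 cDNA. From the same un-treated wells, the bound after AGO2-sh72 was at least 2.83 fold higher in My5.LV and 1.38 in My5.CRBN, without a call. At 72 h of lenalidomide it was at least 4.62 and 2.23 fold higher, and at 120 h neither line gave a direction. In My5.LV, miR-522-3p was at the cap un-treated and had a Ct of 32.7 after AGO2 cDNA, at least 9.66 fold higher. miR-517a-3p, at the cap un-treated and 33.7 after AGO2 cDNA, was at least 4.99 fold higher. These were 2 of 15 members with a value, against 6.04% of all miRNAs, and 0 were lower, against 0.824%. Of the other miRNAs of like Ct, 16 of 139 with a value (11.5%) were at least 3 fold higher and 3 lower, with a median of 0.37. The members' share of 13.3% is near that of this list. The 4 C19MC members under Ct 35 on both arrays had log2 fold changes of 0.47 (miR-512-5p), 0.96 (miR-520g-3p), 1.05 (miR-524-5p) and 1.45 (miR-519d-3p), with a median of 0.15 over all miRNAs and a spread of 0.41. Across the alternatives their lowest values were -0.17, 0.32, 0.41 and 0.81, in the same order. The other 4 with a value were at the cap un-treated, so their values are lower bounds. Both calls rest on such bounds, and among the members under Ct 35 on both arrays 0 were 3 fold higher.

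In My5.CRBN, miR-517a-3p was again higher after AGO2 cDNA, from the cap to a Ct of 34.3, at least 3.47 fold, and miR-302c-3p was lower, from a Ct of 29.2 to 32.1 (log2 fold change -1.79). This was 1 of 13 higher, against 2.28%, and 1 lower, against 6.55%. With the global mean as normalizer miR-302c-3p had a log2 fold change of -1.55 and the counts were 1 higher and 0 lower. With RNU6 alone they were 0 higher and 2 lower. The lower bound of miR-517a-3p was then 1.57, too small for a call, and miR-373-3p was at -1.65 or lower, also a bound. The array of My5.CRBN with AGO2 cDNA had the highest mean Ct of the control wells (21.9), the highest median Ct of miRNAs (30.3) and the fewest miRNAs under 35 (324), and the part of this in the result was not tested. The members' median was -0.69, against -0.17 for all miRNAs, with a spread of 0.56.

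Where AGO2 cDNA was added to 72 h of lenalidomide, the controls were the lenalidomide arrays of the same line. In My5.LV 0 of 17 members were at least 3 fold higher, against 1.09%, and 2 were lower, against 4.37%. These were miR-372-3p (Ct 31.6 and 32.3, log2 fold change -2.32) and miR-302b-3p (Ct 34.0 and at the cap, at least 6.06 fold). In My5.CRBN 2 were higher, against 1.09%, miR-520c-3p (Ct 33.9 and 32.6, log2 fold change 2.57) and miR-522-3p (33.6 and 32.8, log2 fold change 2.05). There 1 was lower, against 7.07%, miR-498 (30.9 and 34.6, log2 fold change -2.49). The low Ct of miR-498 on the My5.CRBN array at 72 h thus enters 2 comparisons with opposite signs, and on the other 11 arrays its Ct was 33.3 or higher. The members' medians were -0.10 and -0.20, those of all miRNAs -0.12 and -0.32, and the spread 0.58 and 0.45. RNU6 alone as normalizer gave 7 members lower in My5.LV, where 96 of all miRNAs were then lower, and 1 higher and 1 lower in My5.CRBN, with miR-522-3p at 1.34. With a cap of 32, 0 members were called in My5.CRBN, where miR-498 had only a bound of 0.11 without a direction.

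My5.CRBN and My5.LV cells were also compared without treatment. Of 12 members with a value, 0 stood at least 3 fold higher in My5.CRBN, against 2.23% of all miRNAs, and 0 lower, against 1.96%. The values furthest from 0 among members under 35 on both arrays were those of miR-520g-3p (1.22, with a Ct of 33.62 for My5.LV and 33.04 for My5.CRBN) and of miR-302a-3p (-1.15, with 31.1 and 32.9). miR-302c-3p (0.24) and miR-373-5p (-0.06) stood beside a spread of the control wells of 0.22. Within a line, the comparisons of AGO2-sh72, AGO2 cDNA and lenalidomide alone share the un-treated array.

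**Figure D5:**
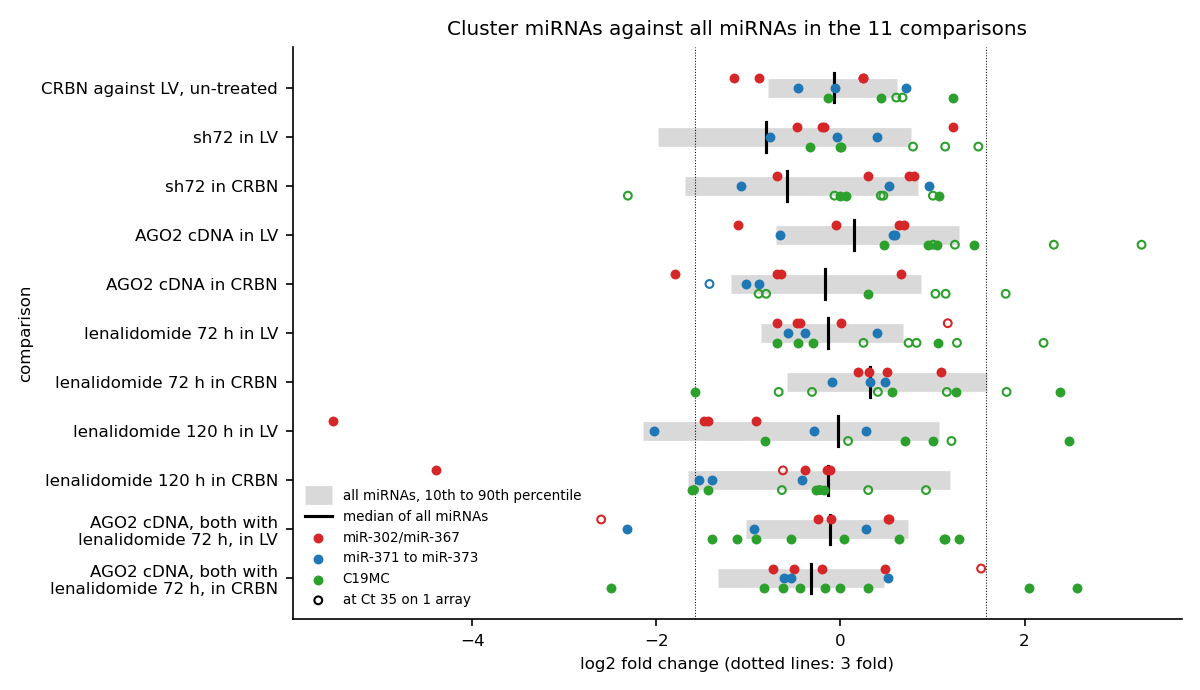
Log2 fold change of the members in the 11 comparisons (rows), coloured by cluster, with open circles for a Ct of 35 on 1 array; grey bars span the 10th to 90th percentile of all miRNAs, black ticks their median and dotted lines 3 fold. In both AGO2-sh72 rows most members lie above the median of all miRNAs (-0.81 and -0.58), and miR-302c-3p at 120 h (-5.51 and -4.39) lies furthest out.

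Other lists give a measure for these values. At 120 h, 8 of 27 chromosome 14 miRNAs (the imprinted DLK1-DIO3 region) with a value were lower by at least 3 fold in My5.LV and 11 of 26 in My5.CRBN, with medians of -1.24 and -0.94, and 2 and 3 of the 5 miR-506 to miR-514 assays of the X chromosome, with medians of -1.05 and -1.83. Of the miR-17 family 0 of 9 and 0 of 10 assays with a value were lower, with medians of 0.44 and -0.53. After AGO2-sh72 the chromosome 14 list had medians of -0.14 and 0.15 and the miR-506 to miR-514 list of -0.79 and -0.12. Of 5 markers of the blood lineage, miR-142-3p had the lowest mean Ct of all 372 assays (16.6 un-treated in My5.LV, 16.9 in My5.CRBN) and miR-150-5p, miR-142-5p and miR-181a-5p were numbers 27, 43 and 49, while miR-155-5p was number 311. Markers of other tissues were measured too. The 4 of muscle stood at numbers 41 (miR-1), 87, 96 and 257, both of brain at 84 (miR-9-5p) and 200, and the 6 of epithelium at 110 (miR-200c-3p), 137, 143, 183, 236 and 260. The 3 of red cells stood at 135 (miR-486-5p), 235 and 337 (miR-144-3p, at the cap in un-treated cells), with miR-223-3p of myeloid cells at 196 and miR-122-5p of liver at 339. The embryonic and placental miRNAs other than miR-373-5p stood between numbers 241 and 369.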

How the data were processed

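As deposited by the authors, the first table holds Ct values, the threshold cycle of each of 384 wells on 12 miScript arrays, with no normalization (total RNA, miScript II reverse transcription, Applied Biosystems 7900HT). The other deposited table holds the authors' own fold changes against un-treated My5.LV cells, and its values were not used, only its assay names. Ct was capped at 35 and the mean of 6 small-RNA control wells subtracted. A call needed at least 3 fold, and a bound was called only in the direction in which it bounds. Arrays have no sequencing depth, and their number limits the precision. All fold changes were computed over the 372 miRNAs. Alternatives were the global mean of 314 miRNAs, RNU6 alone or the reverse transcription wells as normalizer, a cap of 32, and filters at Ct 35 and 30. The members, lists, rules and alternatives were chosen with earlier results of these data known. The rule for named members took the lowest Ct, the most capped, the largest changes and range, changes shared by both lines, and miR-302c-3p, miR-372-3p, miR-517a-3p, miR-517b-3p and miR-519d-3p. It named 16 of 17, and miR-518b is named beside its sequence only. The lists are the miR-17 family, chromosome 14, miR-506 to miR-514 and tissue markers. The count under a normalized Ct of 13.1, the differences within an array and calls on bounds in either direction were added after seeing the data. The script was tested on simulated data. Software was Python 3.11.15, NumPy 2.4.6, pandas 2.3.3 and Matplotlib 3.10.9.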

Additional observations from a re-analysis of the deposited data

Results flagged for a closer look

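A signal stood in wells that enter no comparison. Of the 24 wells for cel-miR-39, a worm miRNA, 19 had a Ct under 35, the lowest at 31.5. With 1 array per condition, no array was set against others of its group.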

How the results depend on the processing

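Each condition has 1 array and no test was made, and the lines were set side by side without being used as pairs. miR-302c-3p at 120 h of lenalidomide stayed at least 3 fold lower under all 7 alternatives that gave a value, but some could not change it. The filters at Ct 35 and 30 and calls on bounds in either direction leave its value as it is. The cap of 32 does so too in My5.CRBN. Only the changed normalizers, and the cap of 32 in My5.LV, could move it. The log2 fold changes were -5.63 to -3.75 (My5.LV, where -3.75 is a bound from the cap of 32) and -4.49 to -4.16 (My5.CRBN). Against the values in the report, 46 of 77 counts of members past 3 fold and 42 of 66 medians stayed the same (sums of higher and lower within 1.5 times, medians within the spread of the control wells). Of those 46 sums, 10 had another split of higher and lower. With a changed normalizer these were 72 h in My5.CRBN (1 and 1 with the global mean, 2 and 1 with the reverse transcription wells), AGO2 cDNA with RNU6 alone (2 and 1 in My5.LV, 0 and 2 in My5.CRBN), 120 h in My5.LV with RNU6 alone (1 and 3) and in My5.CRBN with the reverse transcription wells (0 and 3), and AGO2 cDNA with lenalidomide in My5.CRBN (3 and 1 with the global mean and with the reverse transcription wells, 1 and 1 with RNU6 alone). The others follow, and the cause was not tested except that filters and caps leave fewer members with a value (2 to 3 under the filter at Ct 30, 2 to 11 with the cap of 32). The global mean gave 3 members for AGO2-sh72 in My5.LV and 2 in My5.CRBN, 1 for AGO2 cDNA in My5.CRBN and 1 for 120 h in My5.CRBN. Its medians were 0.86 and 0.98 for AGO2-sh72 in My5.LV and My5.CRBN, and 0.091 at 72 h and -0.18 at 120 h in My5.CRBN. RNU6 alone gave 1 for AGO2-sh72 in My5.LV, 1 for 120 h in My5.CRBN and 7 for AGO2 cDNA with lenalidomide in My5.LV. Its medians were -0.011 for un-treated My5.CRBN against My5.LV, -0.99 and -0.013 for AGO2-sh72 in My5.LV and My5.CRBN, 0.051 for AGO2 cDNA in My5.LV, and -1.16 and -0.92 for AGO2 cDNA with lenalidomide in My5.LV and My5.CRBN. The reverse transcription wells gave a median of 0.059 for AGO2-sh72 in My5.CRBN. The cap of 32 gave 0 for AGO2-sh72 in My5.CRBN, AGO2 cDNA in My5.LV, 72 h in My5.LV and in My5.CRBN, and AGO2 cDNA with lenalidomide in My5.CRBN, and 1 for AGO2 cDNA in My5.CRBN, 120 h in both lines and AGO2 cDNA with lenalidomide in My5.LV. Its medians were 0.51 and -0.0011 for AGO2-sh72 in My5.LV and My5.CRBN, -1.31 for AGO2 cDNA in My5.CRBN, and -0.36 at 72 h and -1.14 at 120 h in My5.CRBN. For some called members that cap cut 1 well and left a bound of the other sign, which gives no direction and no call. These were miR-498 (-0.57) and miR-519d-3p (-1.20) at 72 h in My5.CRBN, and miR-519d-3p at 120 h in My5.LV (-0.49). The last was miR-498 for AGO2 cDNA with lenalidomide in My5.CRBN (0.11). Members without a call also turned sign in this way, such as miR-372-3p for AGO2-sh72 in My5.LV (0.62) and for un-treated My5.CRBN against My5.LV (0.44). Members under Ct 35 on both arrays gave 0 for AGO2-sh72 in My5.CRBN, AGO2 cDNA in My5.LV and 72 h in My5.LV, and 1 for AGO2 cDNA in My5.CRBN, 72 h in My5.CRBN and AGO2 cDNA with lenalidomide in My5.LV, with medians of -0.44 at 72 h and -0.82 at 120 h in My5.LV. Members under Ct 30 on at least 1 array gave 0 for AGO2-sh72 in My5.CRBN, AGO2 cDNA in My5.LV, 72 h in both lines and AGO2 cDNA with lenalidomide in both, and 1 for AGO2 cDNA in My5.CRBN and 120 h in both lines. Their medians were -0.080 for AGO2-sh72 in My5.CRBN, 0.27 and -1.34 for AGO2 cDNA in My5.LV and My5.CRBN, -0.41 at 72 h in My5.LV, and -2.90 and -2.40 at 120 h in My5.LV and My5.CRBN. Calls on bounds in either direction added 1 member, miR-519d-3p at 120 h in My5.CRBN.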
